A study of Homo sapiens with 3 samples.

Results

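The genes described here encode tubulins and the proteins that fold, modify, nucleate, bind or sever microtubules. They were chosen by symbol from textbook families, and all 43 were found among the 58381 genes of the count table: 4 alpha-tubulins, 6 beta-tubulins, 6 genes of the gamma-tubulin complex, 13 tubulin-modifying genes, 5 tubulin folding cofactors and 9 microtubule-binding or severing genes. RNA came from T24 cells, an established human bladder carcinoma line, in 3 conditions with 1 library each. Ctrl cells were untreated and labelled as an empty condition. RT cells were exposed to 10 Gy of gamma rays from a caesium source. RT + shHDAC6 cells, also called the knockdown, received the same dose and carried a lentiviral shRNA against HDAC6. The labels and the methods name a pLKO.1 control vector, whereas the results text of the study calls the comparison cells parental, so whether Ctrl and RT carried the vector is not settled. The knockdown rests on 1 shRNA, and no unirradiated knockdown library was analysed here, so every statement on HDAC6 knockdown holds for irradiated cells.

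Microtubules are hollow polymers of alpha/beta-tubulin dimers, seeded by gamma-tubulin ring complexes and continually grown, shrunk, bundled and cut. Alpha-tubulin is acetylated by ATAT1 on a lysine that faces the lumen of the polymer, and HDAC6, with SIRT2, removes that acetyl group, which is why HDAC6 is known as the tubulin deacetylase. The C-terminal tails of both tubulins project from the surface, where enzymes take off and restore a terminal tyrosine and add or remove glutamates. Counts of mRNA report on none of these marks, only on the genes that make tubulin and its enzymes.

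The site that HDAC6 deacetylates is the lysine at codon 40 of alpha-tubulin, counted from the start codon as 1. The coding sequences of codons 35 to 45 are shown for the 4 alpha-tubulin genes, with codon 40 in capitals, because they show that the message of each of these genes carries the site. They come from GENCODE release 44 on GRCh38.
TUBA1A: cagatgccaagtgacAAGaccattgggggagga
TUBA1B: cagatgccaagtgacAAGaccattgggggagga
TUBA1C: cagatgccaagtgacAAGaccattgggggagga
TUBA4A: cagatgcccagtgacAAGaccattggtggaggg
Codon 40 was AAG in all 4 genes, and the first 3 were identical across the stretch. It lies on chromosome 12 from 49186717 to 49186719 in TUBA1A, from 49129606 to 49129608 in TUBA1B (both on the minus strand) and from 49269579 to 49269581 in TUBA1C (plus strand), and on chromosome 2 from 219252114 to 219252116 in TUBA4A (minus strand), in each case in a coding exon.

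The beta-tubulins differ most in their tails, where glutamates are added to glutamates. The last 18 codons and the stop codon follow, with the glutamate codons GAA and GAG in capitals.
TUBB: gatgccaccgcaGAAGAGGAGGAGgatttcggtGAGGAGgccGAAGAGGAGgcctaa
TUBB2A: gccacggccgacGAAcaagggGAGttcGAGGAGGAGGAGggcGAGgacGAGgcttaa
TUBB2B: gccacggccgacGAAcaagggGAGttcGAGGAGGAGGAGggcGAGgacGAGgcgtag
TUBB3: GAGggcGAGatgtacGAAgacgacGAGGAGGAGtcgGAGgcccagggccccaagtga
TUBB4B: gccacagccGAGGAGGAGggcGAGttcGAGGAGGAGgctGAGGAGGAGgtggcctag
TUBB6: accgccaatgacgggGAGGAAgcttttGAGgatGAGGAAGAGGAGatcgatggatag
TUBB4B had 10 glutamate codons in this stretch, TUBB 9, TUBB2A and TUBB2B 8 each, and TUBB3 and TUBB6 7 each.

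These likenesses bear on the counts. TUBA1A and TUBA1B shared 97.2% of their aligned coding bases, and TUBA1B and TUBA1C 97.3%. Of the windows of 100 bases in the main transcript of each gene, 21.2% in TUBA1A, 37.2% in TUBA1B and 12.3% in TUBA1C occurred letter for letter in a transcript of another gene. The share was 55.6% in TUBB2A, 48.7% in TUBB2B and 92.5% in TUBB3, part of it with an overlapping gene that had 0 counts in every library, but 5.42% in TUBB, 3.01% in TUBB4B and 0% in TUBB6. How multi-mapping reads were handled is not given in the sources used here. The counts of TUBB2A, TUBB2B and TUBB3 are therefore uncertain as levels, and those of TUBA1A, TUBA1B and TUBA1C may exclude or split part of their reads. The strand setting of the counting is also not given, and 44% of the exon length of TUBA1B, 10.8% of that of TUBA1A and 22.7% of that of TUBA1C lie opposite exons of another gene. TUBA1A and TUBA1C overlap each other in this way, so some of their reads may not be told apart.

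The libraries held 35424086 to 41811165 counts. Values below are counts, and levels are CPM after TMM scaling (scaled CPM, counts relative to library size), divided by transcript length in kb when genes are compared with each other. A log2 ratio compares scaled counts of 2 libraries, and the CI beside it is an exact 95% Clopper-Pearson interval, which covers counting error only: reads are not independent molecules, and nothing here measures the spread between replicate cultures. With 1 library a condition no test was possible. A gene is said to have risen or fallen when it differed at least 1.5-fold and the higher of both libraries held 10 counts or more, a description of these libraries and not a test. TMM raised all log2 ratios by 0.24 for RT over Ctrl and by 0.13 for RT + shHDAC6 over Ctrl, and lowered them by 0.11 for RT + shHDAC6 over RT, relative to library totals. The 3 comparisons share libraries and are not independent of each other.

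HDAC6, the target of the shRNA, had 3098 (Ctrl), 2383 (RT) and 2170 (knockdown) counts. Its level in the knockdown library was 85.7% of the RT level (log2 ratio -0.22, CI -0.31 to -0.14), so the RNA of the target was only slightly lower in this library. Over the 5 other scalings this ratio lay between -0.21 and -0.11. In separate assays of shHDAC6 T24 cells the paper reported lower HDAC6 RNA by qPCR. By Western blot it reported less HDAC6 protein and more acetylated alpha-tubulin. Protein was not measured here. For RT over Ctrl the log2 ratio of HDAC6 was 0.082, and it turned to -0.16 with library totals. Of 17 urothelial markers, UPK1B, UPK3A and KRT20 were at 0 in at least 1 library and the other uroplakin genes had at most 18 counts, whereas the keratin gene KRT18 had 7336 to 9048 counts. KRT7 (3533, 3854 and 597 counts), GATA3 (2320, 1423 and 709) and PPARG (1298, 650 and 352) of that list fell in RT + shHDAC6 over RT. Their log2 ratios were -2.78, -1.09 and -0.97. Of the 11 markers of the list with enough counts there, 7 lay above 0, and the median log2 ratio was 0.21. The part of these values in the results below was not tested. The mesenchymal marker VIM had 74147 to 121716 counts. All 16 markers of leukocytes, endothelium, fibroblasts and smooth muscle had counts in every library. They summed to 8618 (Ctrl), 4310 (RT) and 5292 (knockdown) counts, or 189, 130.0 and 150.3 scaled CPM, with log2 ratios of -0.54 for RT over Ctrl and 0.21 for RT + shHDAC6 over RT, and COL1A1 alone gave 4706, 2388 and 2921 of them. The libraries came from a cell line, and the source of these counts was not tested. In bulk RNA, fewer cells with a message and less of it per cell cannot be told apart.

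The first question was which alpha- and beta-tubulin genes T24 cells use. In Ctrl, TUBA1B and TUBB were the most abundant per length, at 727 and 676 scaled CPM per kb. TUBB4B followed at 344, and then TUBB6 at 159, TUBA1A at 137 and TUBA1C at 127. TUBB2A lay at 12.5, TUBB3 at 2.56, TUBA4A at 1.73 and TUBB2B at 0.251 scaled CPM per kb. Thus 6 of the 10 genes carried nearly all tubulin counts. As said above, the levels of TUBB2A, TUBB2B and TUBB3 are uncertain, so their low values may be too low. In RT the order within the beta-tubulins was the same, whereas TUBA1A, at 72.8 scaled CPM per kb, lay under TUBA1C at 234. The 4 alpha-tubulins together took 0.194% of all counts in Ctrl, 0.217% in RT and 0.210% in the knockdown, and the 6 beta-tubulins 0.279%, 0.381% and 0.339%.

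**Figure D1:**
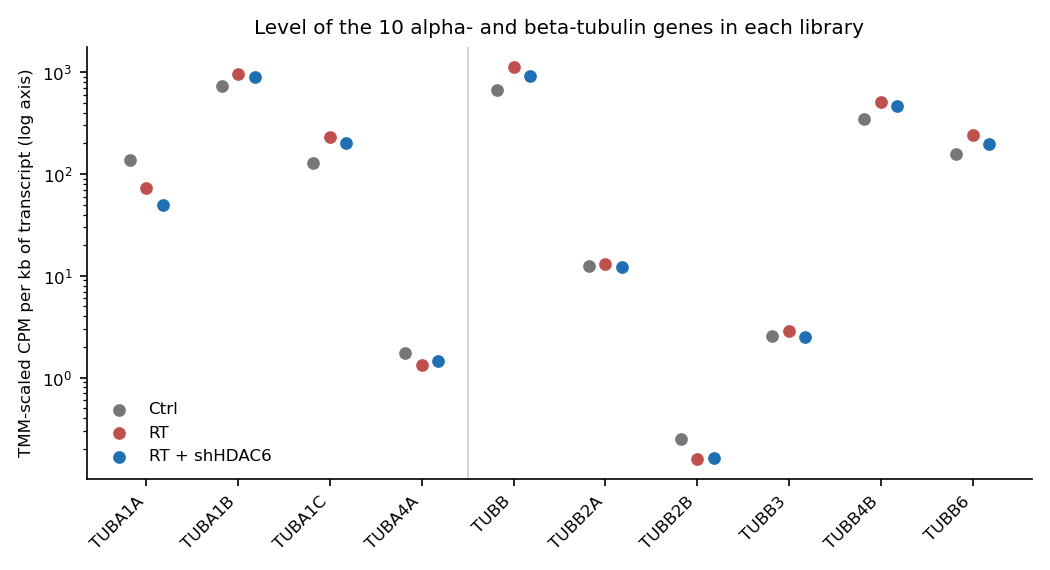
Level of the 4 alpha-tubulin genes (left of the line) and the 6 beta-tubulin genes (right) in TMM-scaled CPM per kb of transcript, on a log axis, with 1 point per library (Ctrl grey, RT red, RT + shHDAC6 blue). TUBA1A is highest in Ctrl (137) and lowest in RT + shHDAC6 (49.5), while TUBA1C goes from 127 in Ctrl to 234 in RT.

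Among the alpha-tubulins, 2 neighbouring genes moved in opposite directions with irradiation. TUBA1A (ENSG00000167552, chromosome 12, 49184686 to 49189080), a major alpha-tubulin of neurons that many dividing cells also express, had 10442 (Ctrl), 4038 (RT) and 2913 (knockdown) counts. It fell 1.88-fold with RT, a log2 ratio of -0.91 (CI -0.96 to -0.86), and was lower again in the knockdown (log2 ratio -0.56 over RT, CI -0.63 to -0.49), just short of 1.5-fold. Against Ctrl its level in RT + shHDAC6 was 2.77-fold lower (log2 ratio -1.47), the largest difference of any of the 43 genes in the 3 comparisons. TUBA1C had 16411 (Ctrl), 21868 (RT) and 20258 (knockdown) counts. It rose 1.83-fold with RT (log2 ratio 0.87, CI 0.85 to 0.90) and had a log2 ratio of -0.20 (CI -0.23 to -0.17) for RT + shHDAC6 over RT. TUBA1B, the most abundant of the family, had 53921, 52130 and 51187 counts, with log2 ratios of 0.41 (CI 0.39 to 0.43) and -0.11 (CI -0.13 to -0.096). TUBA4A, with 162, 90 and 104 counts, had log2 ratios of -0.39 (CI -0.78 to -0.0072) and 0.12 (CI -0.30 to 0.54).

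The make-up of the alpha-tubulin pool does not depend on the scaling, since each gene is set against its own family within a library. TUBA1A made up 12.9% of alpha-tubulin counts in Ctrl (CI 12.7 to 13.1), 5.17% in RT (CI 5.01 to 5.33) and 3.91% in RT + shHDAC6 (CI 3.77 to 4.05). TUBA1C made up 20.3%, 28% and 27.2%, and TUBA1B 66.6%, 66.7% and 68.7%. The share of TUBA1A was thus smaller in both irradiated libraries and that of TUBA1C larger, while the share of TUBA1B stayed within 3 percentage points. Summed alpha-tubulin counts had log2 ratios of 0.41 (CI 0.40 to 0.42) for RT over Ctrl, -0.16 (CI -0.17 to -0.14) for RT + shHDAC6 over RT and 0.25 (CI 0.24 to 0.27) for RT + shHDAC6 over Ctrl.

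**Figure D2:**
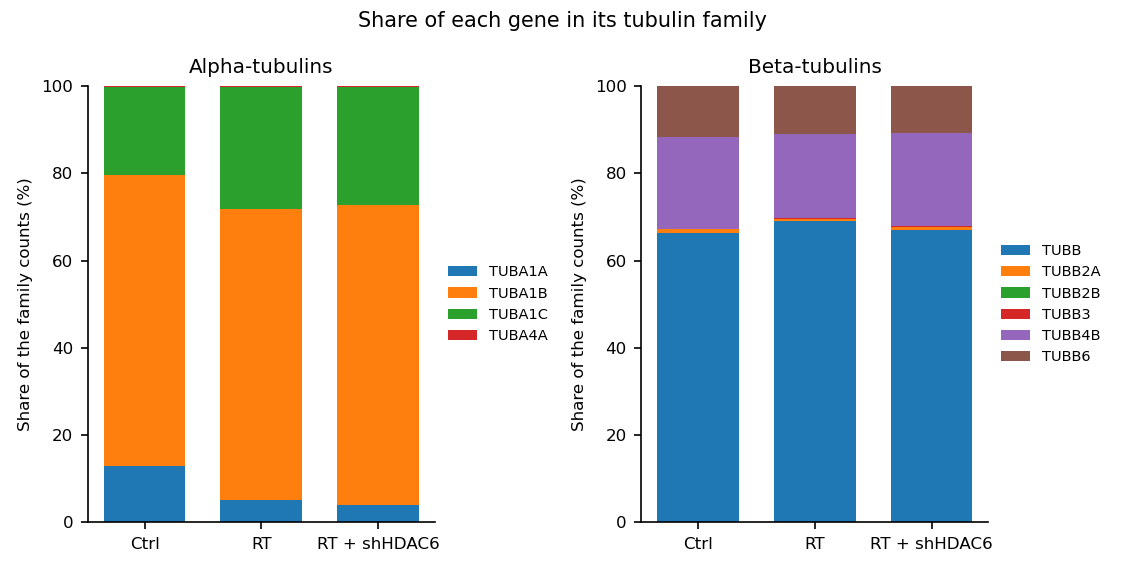
Share of each gene in the summed counts of its tubulin family, in percent, for the 3 libraries (alpha-tubulins left, beta-tubulins right), from 1 library per condition. TUBA1A takes 12.9% of alpha-tubulin counts in Ctrl and 3.91% in RT + shHDAC6, whereas the beta-tubulin shares are alike in the 3 libraries, with TUBB between 66.4% and 69.1%.

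The 250 bases before the RefSeq start sites of these 3 genes on chromosome 12 are printed to show the sequence beside which the messages start (GRCh38.p14, read along the gene's strand). Capitals mark the CCAAT box (CCAAT, or ATTGG on the other strand) and the GC box (GGGCGG, or CCGCCC on the other strand); TATAAA and TTTATA were searched as well. TUBA1A is taken from chr12:49189081-49189330, TUBA1B from chr12:49131396-49131645 and TUBA1C from chr12:49264832-49265081, and neighbouring matches may overlap.
TUBA1A: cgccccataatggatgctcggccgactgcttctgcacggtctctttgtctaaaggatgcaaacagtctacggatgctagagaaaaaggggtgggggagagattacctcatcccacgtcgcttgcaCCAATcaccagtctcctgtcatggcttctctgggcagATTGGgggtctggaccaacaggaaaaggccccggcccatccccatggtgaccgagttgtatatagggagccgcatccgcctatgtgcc
TUBA1B: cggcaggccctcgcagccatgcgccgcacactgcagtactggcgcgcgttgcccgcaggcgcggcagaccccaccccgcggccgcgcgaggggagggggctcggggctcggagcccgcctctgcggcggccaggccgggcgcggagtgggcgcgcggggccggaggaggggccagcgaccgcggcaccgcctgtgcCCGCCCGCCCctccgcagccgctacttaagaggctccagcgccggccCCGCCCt
TUBA1C: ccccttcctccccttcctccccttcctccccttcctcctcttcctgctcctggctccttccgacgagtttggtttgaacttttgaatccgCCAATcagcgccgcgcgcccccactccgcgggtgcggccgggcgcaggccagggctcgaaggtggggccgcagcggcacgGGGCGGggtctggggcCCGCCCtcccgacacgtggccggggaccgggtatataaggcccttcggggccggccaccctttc
TUBA1A held 2 CCAAT boxes and 0 GC boxes, TUBA1B 0 and 3, and TUBA1C 1 and 2; none of the 3 held TATAAA. Over 35116 promoters of the same length, 32.0% held a CCAAT box, 42.6% a GC box and 10.7% TATAAA on either strand. These are matches of letters only, and variants of these sequences were not searched.

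Of the beta-tubulins, the 3 most abundant were higher after irradiation and their proportions changed little. TUBB, which encodes the most widely expressed beta-tubulin, had 77498 (Ctrl), 94655 (RT) and 80612 (knockdown) counts. It rose 1.68-fold with RT (log2 ratio 0.75, CI 0.74 to 0.76), and its log2 ratio for RT + shHDAC6 over RT was -0.32 (CI -0.33 to -0.31). TUBB6, a more divergent beta-tubulin, had 13632, 15138 and 13048 counts; it rose 1.53-fold with RT (log2 ratio 0.61, CI 0.58 to 0.64) and had a log2 ratio of -0.30 (CI -0.34 to -0.27) between the irradiated libraries. TUBB4B, a beta-tubulin used in cilia and in most other cells, had 24524, 26300 and 25615 counts, and its 1.48-fold difference for RT over Ctrl (log2 ratio 0.56, CI 0.54 to 0.59) was just short of the fold. These 3 genes thus lay highest in RT and between RT and Ctrl in RT + shHDAC6 on the scaled level.

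The other beta-tubulins had far fewer counts, and their levels are uncertain because of the shared sequence. TUBB2B passed the fold in RT over Ctrl (22 counts against 10, log2 ratio -0.68), but its interval ran from -1.92 to 0.46, so the difference was not detectable at this depth. TUBB2A (922, 699 and 692 counts) and TUBB3, a neuronal beta-tubulin (199, 161 and 152 counts), had log2 ratios of 0.061 and 0.15 for RT over Ctrl, with intervals that included 0. TUBB made up 66.4%, 69.1% and 67.1% of beta-tubulin counts in Ctrl, RT and RT + shHDAC6, TUBB4B 21.0%, 19.2% and 21.3%, and TUBB6 11.7%, 11.1% and 10.9%. Summed beta-tubulin counts rose 1.61-fold with RT (log2 ratio 0.69, CI 0.68 to 0.70), and had log2 ratios of -0.28 (CI -0.29 to -0.27) for RT + shHDAC6 over RT and 0.41 (CI 0.40 to 0.43) for RT + shHDAC6 over Ctrl.

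For scale, 6 of the 43 genes (14%) rose in RT over Ctrl where 15.3% of the 20267 genes compared rose at least 1.5-fold, and 4 (9.3%) fell where 19.6% of all genes fell. The share of risers was near that of all genes, and the share of fallers was below it. Shares among genes of like counts were not computed for any comparison. The risers were TUBA1C, TUBB, TUBB6, TUBGCP5, TUBGCP6 and TTLL12, and the fallers TUBA1A, TUBB2B, SVBP and MAP7; none reached 2-fold, beside 5.2% of all genes that rose and 8.52% that fell by that much. The median log2 ratio of the 43 was -0.041, beside -0.037 over all genes. Among the 735 genes with at least 10000 counts in Ctrl it was 0.080. Scaling by library totals instead, 2 genes (TUBA1C and TTLL12) rose (4.65%) and 12 fell (27.9%), where 8.3% of all genes rose and 31.3% fell.

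**Figure D3:**
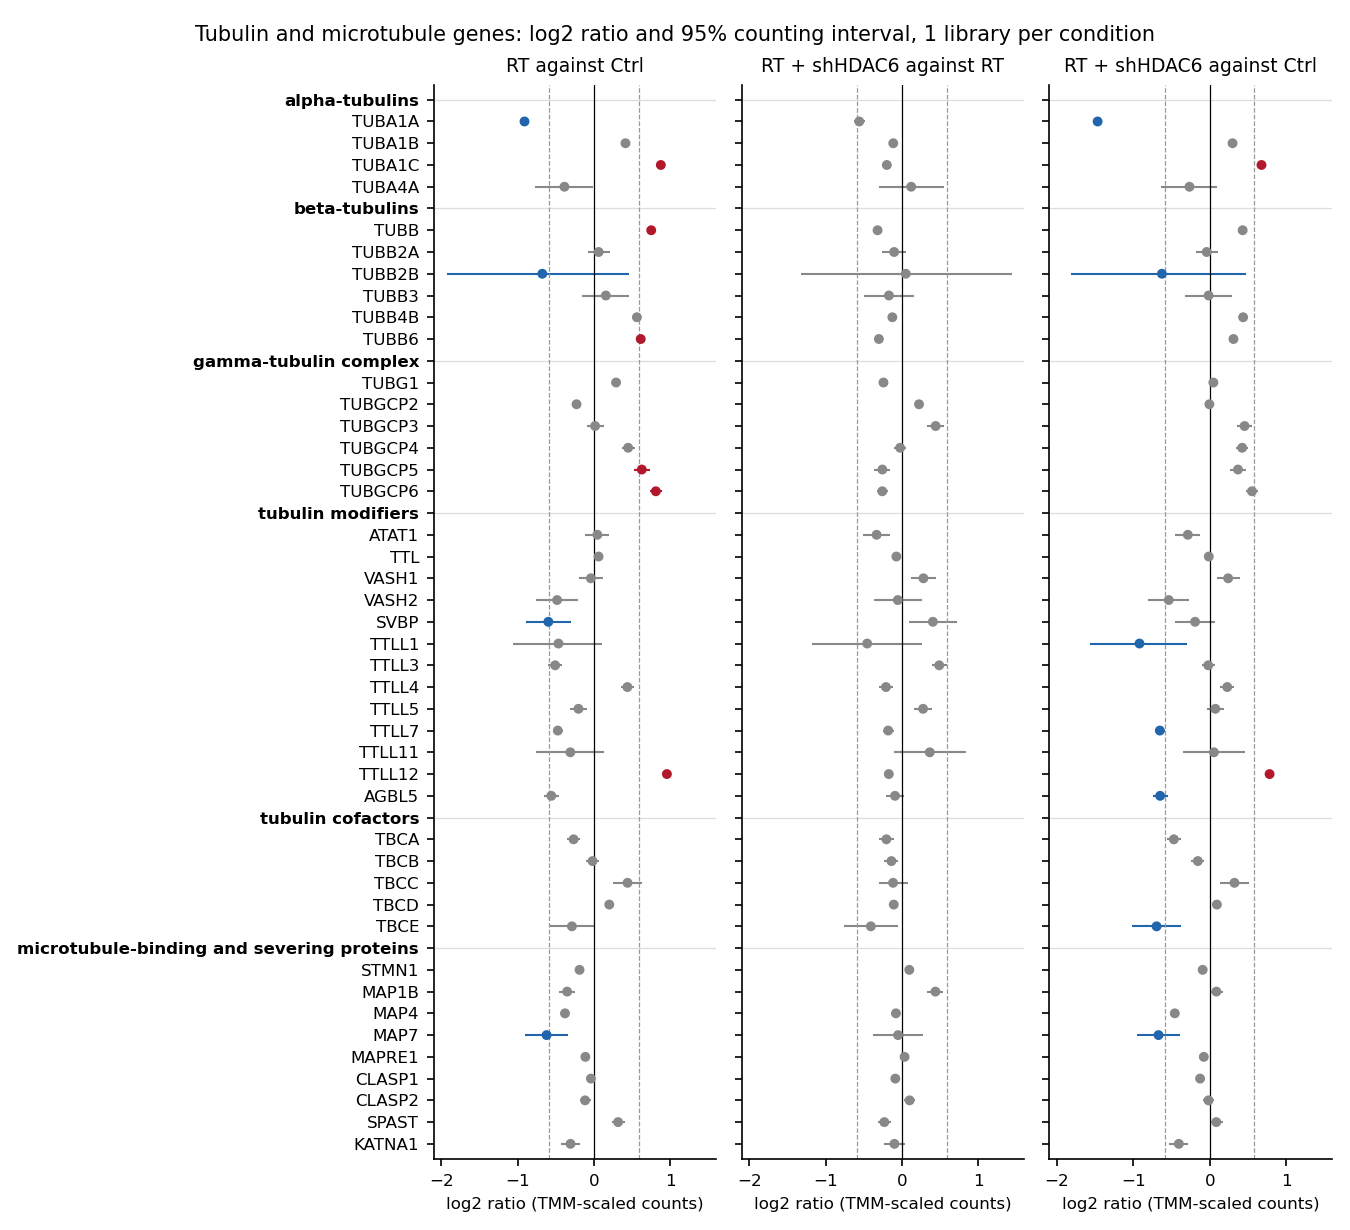
Log2 ratio (TMM-scaled counts) of the 43 genes by role in the 3 comparisons, from 1 library per condition; bars are 95% Clopper-Pearson intervals of counting error and dashed lines mark 1.5-fold. Red and blue points are genes at least 1.5-fold higher or lower: 6 and 4 for RT over Ctrl, 0 and 0 for RT + shHDAC6 over RT, and 2 and 7 for RT + shHDAC6 over Ctrl.

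The gamma-tubulin complex nucleates microtubules from a ring of gamma-tubulin (TUBG1) held by the proteins TUBGCP2 to TUBGCP6. TUBG1 was the most abundant of them per length, at 80.7 scaled CPM per kb in Ctrl, and had 5921, 5256 and 4723 counts. Of the proteins of the ring, TUBGCP6 had 2540, 3235 and 2876 counts and rose 1.75-fold with RT (log2 ratio 0.81, CI 0.73 to 0.88), and TUBGCP5 had 1355, 1519 and 1351 counts and rose 1.54-fold (log2 ratio 0.63, CI 0.52 to 0.73). TUBGCP4 had a log2 ratio of 0.45 and TUBG1 of 0.29, short of the fold. The core subunits TUBGCP2 (8164, 5062 and 6280 counts) and TUBGCP3 (1533, 1125 and 1623 counts) had log2 ratios of -0.23 (CI -0.28 to -0.18) and 0.014 (CI -0.098 to 0.13). In RT + shHDAC6 over RT the same pair had the highest values of the group, 0.22 for TUBGCP2 and 0.44 (CI 0.33 to 0.55) for TUBGCP3, and the other 4 lay between -0.26 and -0.023. The rises of TUBGCP5 and TUBGCP6 passed 1.5-fold with TMM but not with library totals, at 0.38 and 0.57.

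Of the enzymes of the acetylation site, ATAT1, the acetyltransferase, had 789 (Ctrl), 591 (RT) and 499 (knockdown) counts. Its log2 ratio was 0.043 (CI -0.11 to 0.20) for RT over Ctrl, so no difference was detectable, and its sign turned with the scaling (-0.20 to 0.077 over the 5 others). The knockdown lay below RT, at a log2 ratio of -0.33 (CI -0.51 to -0.16), short of 1.5-fold. SIRT2, the other deacetylase, named here after its values were seen, had 1099, 804 and 922 counts and log2 ratios of 0.0094 and 0.11, both with intervals that included 0. Thus neither ATAT1, HDAC6 nor SIRT2 passed 1.5-fold in any of the 3 comparisons.

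For the terminal tyrosine, TTL, the ligase, had 5794, 4388 and 4433 counts, and its log2 ratios of 0.059 (CI 0.0024 to 0.12) and -0.072 (CI -0.13 to -0.012) both turned sign under other scalings. VASH1, a detyrosinating carboxypeptidase, had 773, 546 and 705 counts and log2 ratios of -0.041 and 0.28 (CI 0.12 to 0.45). VASH2, its paralogue, had 327, 170 and 174 counts, with a log2 ratio of -0.48 (CI -0.76 to -0.21) for RT over Ctrl. SVBP, the small chaperone that both need, had 302, 145 and 204 counts: it fell 1.51-fold with RT (log2 ratio -0.60, CI -0.89 to -0.31) and had a log2 ratio of 0.41 (CI 0.091 to 0.72) for RT + shHDAC6 over RT. The summed counts of the markers of other cell types had moved the same way over the 3 libraries (log2 ratios of -0.54 and 0.21). So had the separate sums for endothelium, fibroblasts and smooth muscle, whereas the leukocyte sum had -0.25 and -0.15. Single markers did not all follow these sums. The part of such markers in the values of SVBP and other scarce genes was not tested.

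Among the TTLL family and the deglutamylase, the largest rise was that of TTLL12, the most abundant of the modifying genes per length, with 3878 (Ctrl), 5461 (RT) and 5151 (knockdown) counts. It rose 1.94-fold with RT (log2 ratio 0.95, CI 0.89 to 1.01), the largest rise of all 43 genes, and stayed 1.72-fold above Ctrl in RT + shHDAC6. The glutamylase TTLL4 (2040, 2007 and 1845 counts) had a log2 ratio of 0.44 for RT over Ctrl. The glutamylase TTLL7, with 6082, 3182 and 2984 counts, had a log2 ratio of -0.47 (CI -0.54 to -0.41) for RT over Ctrl and fell 1.57-fold in RT + shHDAC6 over Ctrl (log2 ratio -0.65, CI -0.72 to -0.59). AGBL5, which removes branch-point glutamates, had 2531, 1248 and 1245 counts, log2 ratios of -0.56 (CI -0.66 to -0.46) for RT over Ctrl and -0.65 (CI -0.75 to -0.55) for RT + shHDAC6 over Ctrl, the latter a 1.57-fold fall. TTLL3, a glycylase, had 2733, 1396 and 2081 counts. Its log2 ratios were -0.51 for RT over Ctrl and 0.49 (CI 0.39 to 0.59) for RT + shHDAC6 over RT. The latter was the highest value of the 43 in that comparison. Of its exon length, 21.3% is shared with the read-through gene ARPC4-TTLL3, which had at most 1 count. How reads on both genes were counted is not given, so the level of TTLL3 is uncertain. TTLL1, TTLL5 and TTLL11 had 76, 1545 and 116 counts in Ctrl, and of these only TTLL1 passed the fold, in RT + shHDAC6 over Ctrl, with 31 counts left (log2 ratio -0.92, CI -1.57 to -0.30).

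The folding cofactors TBCA to TBCE assemble the alpha/beta dimer. None of the 5 passed the fold in RT over Ctrl, where their log2 ratios lay between -0.29 and 0.44, and all 5 had negative log2 ratios for RT + shHDAC6 over RT, from -0.41 to -0.11, within the fold; with library totals TBCD turned positive and 4 remained negative. TBCA, the most abundant per length and a binder of beta-tubulin, had 2934, 1772 and 1635 counts. TBCE, a binder of alpha-tubulin, had 254, 151 and 121 counts and fell 1.62-fold in RT + shHDAC6 over Ctrl (log2 ratio -0.70, CI -1.02 to -0.38); an overlapping gene on the same strand (ENSG00000285053) had 235, 147 and 169 counts, and 17.9% of the exon length of TBCE overlaps genes on its strand, so its own level is uncertain.

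Of the proteins that bind or cut microtubules, STMN1, which sequesters tubulin dimers, was the most abundant per length, with 8224, 5240 and 5952 counts and log2 ratios of -0.19 and 0.097. MAP4, the main microtubule-stabilising protein outside neurons, had 31345, 17508 and 17614 counts and a log2 ratio of -0.38 (CI -0.41 to -0.35) for RT over Ctrl and of -0.46 for RT + shHDAC6 over Ctrl. MAP7, which recruits kinesin-1, had 328, 155 and 159 counts and fell 1.54-fold with RT (log2 ratio -0.62, CI -0.91 to -0.34), with no difference detectable between the irradiated libraries (CI -0.38 to 0.28). MAP1B, a stabilising protein best known from neurons, had 2236, 1273 and 1833 counts, log2 ratios of -0.35 and 0.44 (CI 0.33 to 0.54). The plus-end protein MAPRE1 and the rescue factors CLASP1 and CLASP2 had log2 ratios between -0.12 and -0.041 for RT over Ctrl, and the severing enzymes SPAST and KATNA1 had 0.31 and -0.31. In that comparison 8 of the 9 genes of this group had values under 0, and SPAST alone lay above.

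Irradiated cells with and without the shRNA were set side by side to ask whether tubulin genes differed between these libraries. HDAC6 RNA itself was at 85.7% of the RT level in the knockdown (log2 ratio -0.22), within the same fold. How tubulin genes respond to a deeper loss of HDAC6 RNA was therefore not tested. None of the 43 genes was 1.5-fold higher or lower in RT + shHDAC6 than in RT, where 9.52% of the 19013 genes compared were higher and 10.6% lower; at 2-fold these shares were 4.2% and 4.92%. The log2 ratios of the 43 lay between -0.56 (TUBA1A) and 0.49 (TTLL3), with a median of -0.10 beside -0.028 over all genes, and 30 of the 43 lay under 0. With library totals the median was 0.0071 and 20 of the 43 lay under 0, so these signs rest on the scaling, and 1 gene, TTLL3, then passed 1.5-fold, where 12.1% of all genes did in that direction. All 5 cofactors and 5 of the 6 beta-tubulins had values under 0 with TMM, against 4 and 4 with library totals, while TUBGCP3, MAP1B, SVBP and TTLL3 were the 4 above 0.40 with TMM.

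**Figure D4:**
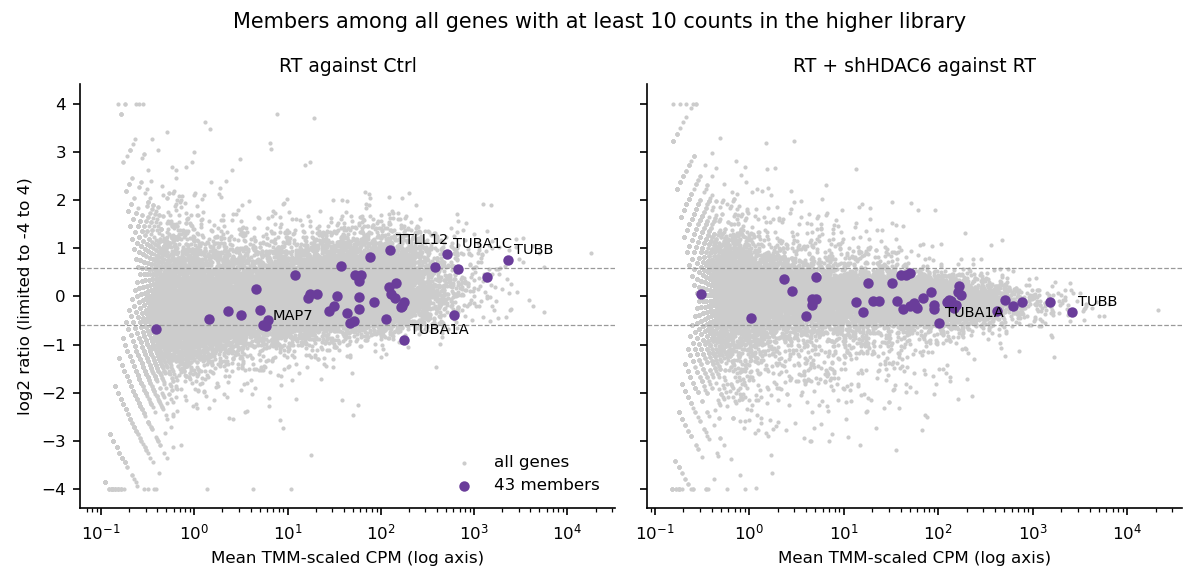
Log2 ratio against mean TMM-scaled CPM (log axis) for all genes whose higher library held 10 counts or more (grey) and the 43 genes (purple), for RT over Ctrl (left) and RT + shHDAC6 over RT (right), with dashed lines at 1.5-fold and ratios clipped at the ends of the axis. Purple points reach past the lines on both sides on the left, from TUBA1A at -0.91 to TTLL12 at 0.95, and all lie inside them on the right.

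Against untreated cells, 2 of the 43 genes (4.65%) were higher in RT + shHDAC6 and 7 (16.3%) were lower, where 13.9% and 20.5% of the 20374 genes compared were higher and lower. TUBA1C and TTLL12 were the 2 higher genes. TUBA1A, TUBB2B, TTLL1, TTLL7, AGBL5, TBCE and MAP7 were lower, and of these TUBA1A alone passed 2-fold, beside 10.5% of all genes, whereas none of the 43 was 2-fold higher, beside 4.91% of all genes.

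The rest of the microtubule system was followed through a list of 103 further genes (other tubulins, modifiers, nucleation and augmin genes, binding and severing proteins, and motors). In RT over Ctrl, 6 of the 93 with enough counts rose (6.45%) and 19 fell (20.4%), beside 15.3% and 19.6% of all genes, so that the share of fallers was near that of all genes and the share of risers below it. In RT + shHDAC6 over RT, 4 of 87 rose (4.6%) and 5 fell (5.75%), beside 9.52% and 10.6% of all genes. Against Ctrl, 4 of 93 rose (4.3%) and 18 fell (19.4%), beside 13.9% and 20.5%. Augmin and other nucleation genes had a median log2 ratio of 0.21 for RT over Ctrl. Binding, tip and severing genes had -0.33, motor genes -0.16, other tubulins -0.49 and other modifiers -0.13, beside -0.037 over all genes. Library totals lower each of these medians by 0.24. In RT + shHDAC6 over Ctrl, 8 of the 93 were at least 2-fold lower and 0 higher, beside 10.5% and 4.91% of all genes. The share of all genes past 2-fold with at least 100 counts was not computed. Changes of at least 2-fold with at least 100 counts were seen for 2 genes, both in RT + shHDAC6 over Ctrl. They were TUBB4A, a neuronal beta-tubulin (338, 124 and 94 counts, log2 ratio -1.47, CI -1.82 to -1.14), and KIF5A, a kinesin-1 heavy chain of neurons (669, 304 and 202 counts, log2 ratio -1.35, CI -1.59 to -1.13). For RT over Ctrl their log2 ratios were -0.99 and -0.68, beside -0.54 for the summed markers of other cell types. For RT + shHDAC6 over RT they were -0.49 and -0.68, beside 0.21 for those markers. The part of such markers in these values was not tested.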

How the data were processed

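The deposited values are read counts per gene without normalisation. To make these counts the authors used cutadapt for trimming, STAR for alignment to GRCh38 and featureCounts with the GENCODE release 28 annotation. The submitters' processing notes give STAR 2.6.1a, and the paper names another version and another library kit than the labels. Strand and multi-mapping settings are not given in the sources used here. Of 58381 identifiers, 57754 matched GENCODE release 44, whose models gave symbols, positions, exon overlaps and sequences. The authors deposited 3 count columns, and 0 columns were left unused. From these counts, TMM factors over the 3 libraries (Ctrl as reference) were computed with edgeR 4.0.16 in R 4.3.3, median of ratios factors with DESeq2 1.42.0, and log2 ratios with numpy 2.4.6, a count of 0 being set to 0.5; intervals came from scipy 1.17.1. Levels per kb used the length of the canonical transcript. The study called genes with NOISeq, which simulates its noise, so only its TMM scaling was kept. A count of 3, the limit that a count of 0 allows, equals 0.0658, 0.0905 and 0.0852 scaled CPM in Ctrl, RT and RT + shHDAC6. The scripts were tested on simulated data. Values are given for every gene past 1.5-fold in any comparison, for the most abundant gene of each role per length and for ATAT1 and HDAC6; further members, named after their values were seen, complete each role, and of the 103 other genes those past 2-fold with at least 100 counts. The genes, lists and rules were chosen with earlier results of these data known. Alternatives covered scaling, zeros, the count minimum and the fold. Some sequences of these genes are not reported here.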

Additional observations from a re-analysis of the deposited data

How the results depend on the processing

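No paired analysis was possible because there was 1 library per condition, and for the same reason no replicate could be left out. No gene past 1.5-fold changed direction under any of the 5 other scalings, but of the 6 genes that rose in RT over Ctrl 2 (TUBA1C and TTLL12) passed the fold under all 5, as did 3 of the 4 that fell (not SVBP). The sign turned under at least 1 of them for 7 of the 43 genes in RT over Ctrl, 10 in RT + shHDAC6 over RT and 12 in RT + shHDAC6 over Ctrl, none of them past the fold there, and for HDAC6 in RT over Ctrl. Library totals gave 2 rises and 12 falls in RT over Ctrl, where 8.3% and 31.3% of all genes rose and fell. Library totals without mitochondrial genes gave 3 and 11 (9.03% and 29.6%). Upper quartile scaling gave 4 and 6 there (12.7% and 23.4%), and median of ratios 7 and 3 (16.5% and 18.3%). For RT + shHDAC6 over RT, library totals with and without mitochondrial genes each gave 1 rise (12.1% and 11.9% of all genes). Against Ctrl each gave 1 rise (9.87% and 10.7%), with 10 and 8 falls (25.8% and 24.6%). A 2-fold rule left 0 rises and 0 falls in RT over Ctrl and 0 rises and 1 fall in RT + shHDAC6 over Ctrl. Counting by the nearer bound of the interval left 4 rises and 1 fall in RT over Ctrl, and 2 rises and 2 falls in RT + shHDAC6 over Ctrl. The shares of all genes under that rule were not computed. With library totals, with and without mitochondrial genes, the median log2 ratio of the 43 genes was -0.28 and -0.25 for RT over Ctrl, 0.0071 and -0.0017 for RT + shHDAC6 over RT, and -0.15 and -0.12 for RT + shHDAC6 over Ctrl. Summed alpha-tubulin for RT over Ctrl was 0.17 with library totals, 0.20 without mitochondrial genes, 0.33 with upper quartile and 0.44 with median of ratios scaling. In the same order it was -0.048, -0.056, -0.10 and -0.14 for RT + shHDAC6 over RT (-0.13 with TMM on these 2 libraries) and 0.12, 0.15, 0.22 and 0.30 for RT + shHDAC6 over Ctrl. Summed beta-tubulin was 0.45, 0.48, 0.61 and 0.72 for RT over Ctrl, -0.17, -0.18, -0.22 and -0.26 for RT + shHDAC6 over RT (-0.25 with TMM on the 2 libraries) and 0.28, 0.31, 0.38 and 0.46 for RT + shHDAC6 over Ctrl. Zeros set to 1 and no count minimum or one of 50 moved no count by over 1.5 times. The shifts follow from the scaling factors themselves. Depth limits TUBB2B (22 counts at most) and TTLL1 (76 at most), whose intervals are the widest among the genes that passed the fold.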
